A study of Homo sapiens with 9 samples.

Results

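Histone genes were read out from poly(A)-selected RNA of Caco-2 cells, an established line from a human colon adenocarcinoma that can form an enterocyte-like epithelium: the linker histone H1 genes, and the clustered genes for the core histones H2A, H2B, H3 and H4. Of 27634 genes in the count table, 73 protein-coding genes have a symbol of these families, and 33 of those with at least 15 reads over all libraries are described. They are 4 H1 genes, 9 of 17 H2A genes, 11 of 18 H2B genes, 4 of 13 H3 genes and 5 of 15 H4 genes. The minimum of 15 reads lay between H4C9 and H4C12, with 15 each, and H2BC7 with 14 and H1-5 with 13. All cells were kept in medium with lipid-depleted serum and were given 10 µM lovastatin, a statin that blocks cholesterol synthesis, for 48 h. The groups were lovastatin with 10 µM SGA360, lovastatin with 10 µM SGA315, and lovastatin alone, with 3 libraries each. Both compounds are labelled as selective AHR ligands, AHR being the aryl hydrocarbon receptor, which regulates transcription when a ligand binds it. No group without lovastatin was analysed here, and every comparison is therefore within statin-treated cells. The 3 libraries of a group are not said to come from separate cultures, and p-values may measure technical spread only.

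Core histones form the protein spool around which DNA is wound: H3 and H4 make its centre, H2A and H2B flank it, and a linker H1 binds where the DNA enters and leaves. The clustered, or replication-dependent, genes are used mainly in S phase, when new DNA has to be packed. Their mRNAs are known for ending in a stem-loop bound by SLBP in place of a poly(A) tail, although several of them also give polyadenylated transcripts, among others in differentiated cells. H1-10 is different: its mRNA is polyadenylated and made outside S phase. Because poly(A) selection discards most stem-loop mRNA, the levels of the clustered genes given here are those of the polyadenylated part and of whatever else passed the selection, not of total histone mRNA.

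The stem-loop is shown because it marks the mRNAs known to end without a poly(A) tail. A member without a match may still have one, because its annotated transcript can lack the 3′ UTR. It was searched as 16 letters in the GENCODE 29 transcript of each member's table entry (build GRCh38), and it lay in the transcript of 18 of 33 members, or of 18 of the 22 whose transcript has an annotated 3′ UTR, against 42 of 83129 protein-coding transcripts (0.0505%). The transcripts of H1-2 and H1-10 held none, although that of H1-2 has no annotated 3′ UTR. The stem and loop are in capitals below, with 5 flanking bases on each side in lower case, for genes whose values follow. The positions are chr6:26124669-26124684 on the plus strand for H2AC6, chr1:228457369-228457384 on the minus strand for H2AC25, chr1:149886188-149886203 on the minus strand for H2BC21, chr6:26158587-26158602 on the plus strand for H2BC5, chr6:27133515-27133530 on the plus strand for H2AC11 and chr12:14770724-14770739 on the minus strand for H4C16, all in 3′ UTRs.
H2AC6: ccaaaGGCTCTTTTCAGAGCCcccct
H2AC25: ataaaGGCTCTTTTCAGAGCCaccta
H2BC21: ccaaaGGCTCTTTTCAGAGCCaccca
H2BC5: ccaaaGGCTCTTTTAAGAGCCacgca
H2AC11: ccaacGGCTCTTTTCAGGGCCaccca
H4C16: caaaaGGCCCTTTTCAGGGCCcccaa
The letters of H2AC6, H2AC25 and H2BC21 are shared by 10 members, and those of H4C16 by 3 members, all H4 genes. For H2BC5 the stem-loop is in the transcript of its lower-count entry, and the transcript of the higher-count entry, which stands for the gene, held none. The same holds for H2BC18. In 14 members more than 100 annotated bases follow the stem-loop, so the annotation itself includes transcripts that run past it.

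The 250 bases before the start of genes that moved in different ways are shown next, from RefSeq promoters of build GRCh38.p14, to set a linker gene outside the clusters beside clustered genes. They are chr3:129316287-129316536 (minus strand) for H1-10, chr6:27146859-27147108 (minus strand) for H2BC12, chr6:26157871-26158120 (plus strand) for H2BC5 and chr6:26123922-26124171 (plus strand) for H2AC6. Capitals mark CCAAT, the octamer ATTTGCAT of H2B promoters, the TATA-box letters TATAAA and the H1 box AAACACA, each on either strand. In H2BC12 a match on each strand overlaps at TTTATAAA.
H1-10: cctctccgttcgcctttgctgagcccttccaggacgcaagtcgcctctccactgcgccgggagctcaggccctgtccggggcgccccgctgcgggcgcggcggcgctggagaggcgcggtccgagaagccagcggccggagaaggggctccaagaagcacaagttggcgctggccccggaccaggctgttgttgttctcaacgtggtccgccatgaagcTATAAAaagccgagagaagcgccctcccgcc
H2BC12: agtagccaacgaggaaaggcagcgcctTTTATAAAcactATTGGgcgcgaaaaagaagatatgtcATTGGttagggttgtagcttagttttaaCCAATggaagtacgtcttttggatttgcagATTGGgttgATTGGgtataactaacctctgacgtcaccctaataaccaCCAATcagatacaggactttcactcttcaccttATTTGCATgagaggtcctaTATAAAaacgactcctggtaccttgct
H2BC5: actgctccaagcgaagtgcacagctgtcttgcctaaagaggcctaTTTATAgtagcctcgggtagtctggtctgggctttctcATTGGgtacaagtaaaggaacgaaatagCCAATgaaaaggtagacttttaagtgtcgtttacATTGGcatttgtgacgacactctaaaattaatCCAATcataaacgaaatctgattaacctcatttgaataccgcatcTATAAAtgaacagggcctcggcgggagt
H2AC6: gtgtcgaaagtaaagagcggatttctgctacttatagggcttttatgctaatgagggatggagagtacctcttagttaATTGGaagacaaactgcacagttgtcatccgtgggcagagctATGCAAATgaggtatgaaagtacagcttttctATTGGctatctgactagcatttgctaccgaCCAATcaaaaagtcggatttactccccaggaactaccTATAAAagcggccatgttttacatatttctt
All 33 members had an entry, and 28 held CCAAT, against 33% of all 27305 promoters. ATTTGCAT was in 15 members, among them 8 of 11 H2B and 6 of 9 H2A genes, against 1.66% of all promoters. TATAAA was in 20 members, against 11.1% of all promoters. AAACACA was in H1-2, H1-3 and H1-4, against 4.95% of all promoters. The core of the AHR response element, GCGTG on either strand, was in 2 members, H1-4 and H3C6, against 31.9% of all promoters, and TTGCGTG, which contains it, was in 0 members, against 0.956%. These are matches of letters in a short window, not measured binding sites.

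Of the linker genes, H1-10 rose with SGA360 (log2 0.38) and H1-2 fell with SGA315 (by 0.42 on the log2 scale). Among the clustered genes, those for H2A and H2B split: H2AC25 rose with both compounds, H2AC6, H2BC5 and H2BC21 rose with SGA315, and H2BC12 fell with both compounds. H2BC5 was called lower with SGA360, with libraries that overlapped those of lovastatin alone and a call lost in 6 of 18 alternatives. Depth was 12342133 to 16881217 reads per library over 1 entry per gene. Levels are CPM, read counts scaled to a common library size after TMM normalisation, changes are log2 fold changes, and a gene is called at a Benjamini-Hochberg adjusted p under 0.05 over all 14665 genes tested.

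15 of the 33 members had enough reads to be tested, and 18 did not pass the filter on low counts. With SGA360, 2 of the 15 rose and 2 fell against lovastatin alone, where 62.8% of all genes tested were called (31.4% higher and 31.4% lower). H1-10 and H2AC25 were higher, and H2BC12 and H2BC5 lower. Under scaling to totals only, 4 rose and 1 fell, where 65.5% of all genes were called (44.1% higher and 21.4% lower). With DESeq2, 3 members were called, where 54.0% of all genes were. The median change over the 15 was −0.04, against 0.02 over all genes tested, and under scaling to totals only it was 0.08, against 0.14 over all genes. With SGA315, 6 rose (H2AC25, H2AC6, H2BC5, H2BC21, H2BC15 and H2BC9) and 2 fell (H2BC12 and H1-2), where 69.2% of all genes were called (36.0% higher and 33.2% lower). Under scaling to totals only, 7 rose and 1 fell, where 71.9% of all genes were called (47.2% higher and 24.7% lower). Without lovastatin replicate 2, 5 members were called, where 64.8% of all genes were, and with DESeq2 also 5, where 60.8% of all genes were. The median with SGA315 was 0.38, against 0.04 over all genes. Both comparisons use the same lovastatin libraries. The share of members called lay below that of all genes in both, and most members tested had few reads. Between libraries, 4 members did not overlap with SGA360 (2 above and 2 below the lovastatin libraries), where 66.3% of all genes did not (33.4% above and 33.0% below). With SGA315, 8 did not overlap (6 above and 2 below), where 70.4% of all genes did not (36.6% above and 33.8% below). In bulk RNA, fewer cells of a kind and less RNA per cell cannot be told apart.

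**Figure D1:**
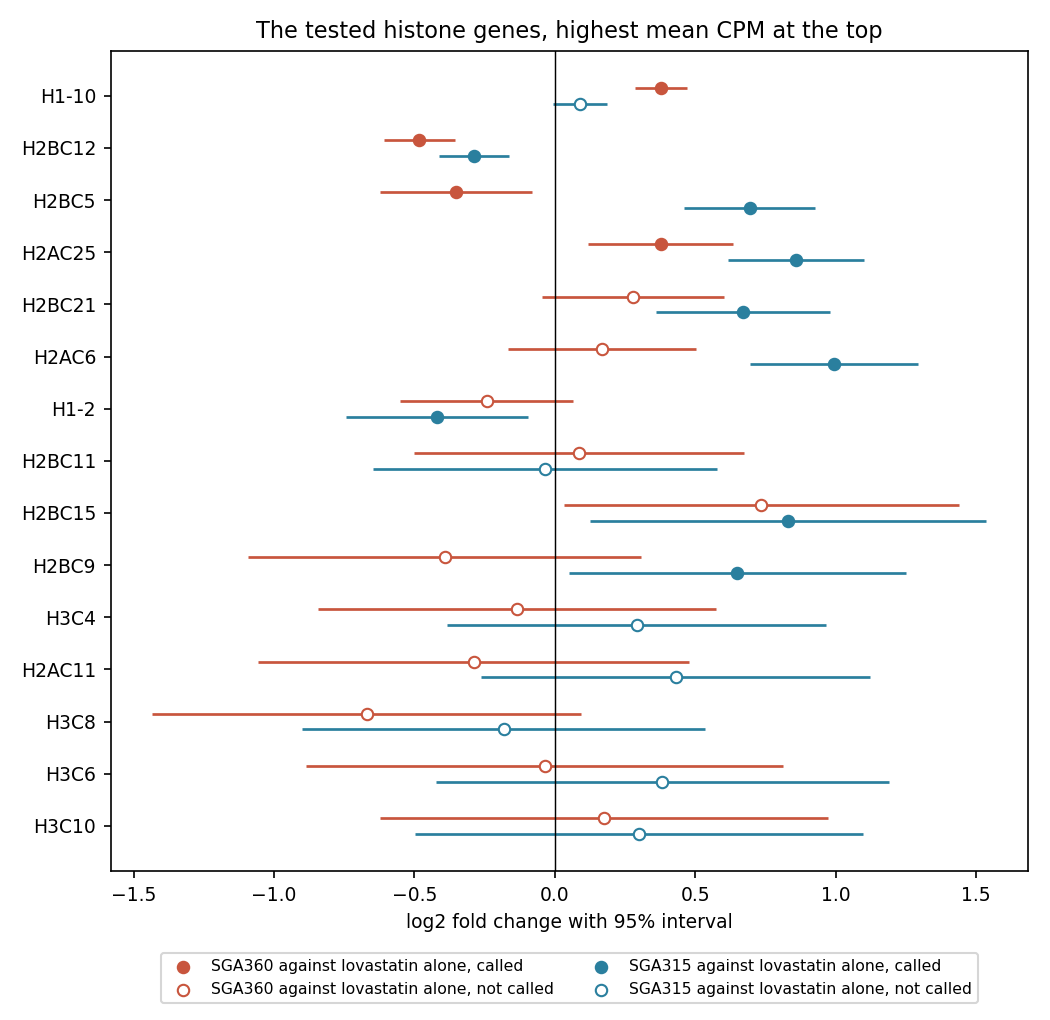
Log2 fold change against lovastatin alone (horizontal axis) of the 15 tested histone genes, with bars for the 95% interval of the fit, for SGA360 (red) and SGA315 (blue); filled points are called genes. H2BC12 lies at −0.48 with SGA360 and −0.29 with SGA315, while H2BC5 lies at −0.35 with SGA360 and 0.69 with SGA315.

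H1-10, a divergent linker histone that is also made outside S phase, rose with SGA360. Its libraries had 82.5, 81.5 and 79.8 CPM with SGA360, 63.0, 73.8 and 63.2 CPM with SGA315, and 59.1, 61.6 and 67.0 CPM with lovastatin alone. The SGA360 libraries lay above all others, and those of SGA315 overlapped the lovastatin libraries. The change was 0.38 with SGA360 (SE 0.0459, adjusted p = 7.83e-11). With SGA315 it was 0.09 (95% interval −0.01 to 0.19, adjusted p = 0.0883), and it was called, at adjusted p = 0.0300, 0.0460 and 0.0247, without lovastatin replicate 3, SGA315 replicate 1 or SGA315 replicate 3, and under scaling to totals only (log2 0.21, adjusted p = 9.78e-05). H1-10 shares 16 bp with the antisense gene H1-10-AS1, and because the strand setting of the counting is not given, reads there may be of either.

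The replication-dependent linker genes had few reads. H1-2 had 3.98, 4.23 and 3.07 CPM with SGA360, 3.22, 3.65 and 3.25 CPM with SGA315, and 4.78, 5.18 and 3.70 CPM with lovastatin alone. The SGA315 libraries lay below all lovastatin libraries, and the SGA360 libraries overlapped them. H1-2 fell by 0.42 on the log2 scale with SGA315 (SE 0.162, adjusted p = 0.0184), a call that was lost without lovastatin replicate 1 (adjusted p = 0.0544), lovastatin replicate 2 (0.107) or SGA315 replicate 1 (0.0515), with DESeq2 (0.0609) and under scaling to totals only (0.0913). With SGA360 the change was −0.24 (adjusted p = 0.167), and −0.39 without lovastatin replicate 3 (adjusted p = 0.0386). H1-3 had 9 reads in all with SGA360, 11 with SGA315 and 3 with lovastatin alone. H1-4 had 18 reads with SGA360, 8 with SGA315 and 10 with lovastatin alone. Neither was tested. Per library, H1-3 had 4, 4 and 1 reads with SGA360, 3, 5 and 3 with SGA315, and 1, 0 and 2 with lovastatin alone. H1-4 had 8, 5 and 5 reads with SGA360, 2, 2 and 4 with SGA315, and 1, 6 and 3 with lovastatin alone. For H1-3 every SGA315 library lay above every lovastatin library, at counts of at most 5, and the SGA360 libraries overlapped both other groups. For H1-4 the libraries of either compound overlapped those of lovastatin alone, and the SGA360 libraries lay above those of SGA315 in reads but not in CPM.

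**Figure D2:**
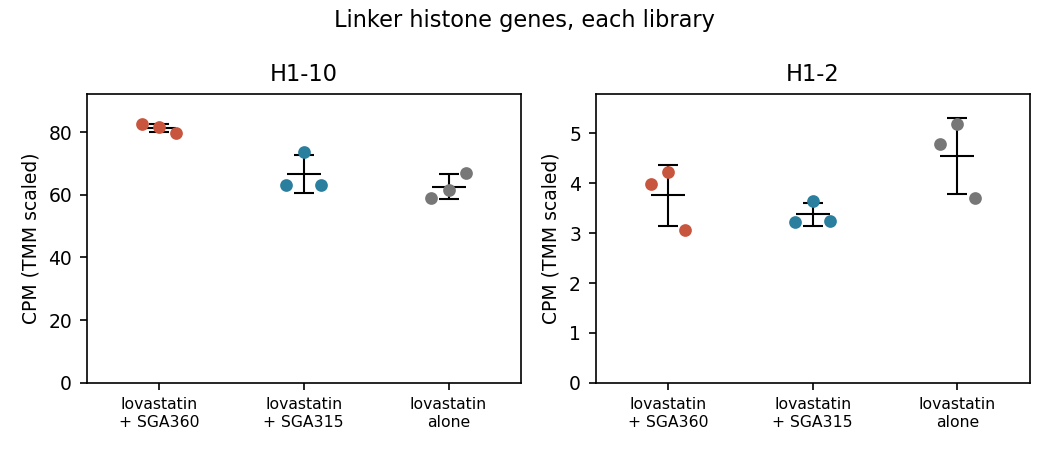
CPM after TMM scaling (vertical axis, from 0, each panel with its own scale) of H1-10 and H1-2 in each library, by group; points are libraries and bars the mean ± SD of 3. For H1-10 the SGA360 libraries alone stand above the lovastatin libraries, and for H1-2 the SGA315 libraries alone stand below them.

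2 of the 3 tested H2A genes rose with SGA315, where 36.0% of all genes rose, and 3 genes are too few to describe the class. Summed over the 9 H2A members the level was 11.7 ± 1.05 CPM with SGA360, 17.8 ± 0.769 CPM with SGA315 and 10.2 ± 0.528 CPM with lovastatin alone (SD, n = 3 libraries each). H2AC25 and H2AC6 carried most of that sum. H2AC25, an H2A gene of the small cluster on chromosome 1, had 6.33, 5.91 and 7.16 CPM with SGA360, 8.48, 9.25 and 9.15 CPM with SGA315, and 4.51, 5.25 and 5.06 CPM with lovastatin alone. The 3 groups did not overlap. H2AC25 rose by 0.38 with SGA360 (SE 0.129, adjusted p = 0.00889) and by 0.86 with SGA315 (SE 0.121, adjusted p = 4.74e-09). The SGA360 call was lost without lovastatin replicate 1 (adjusted p = 0.0686) or SGA360 replicate 3 (0.0519).

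H2AC6, an H2A gene of the large cluster on chromosome 6, rose with SGA315. It had 3.19, 3.25 and 3.70 CPM with SGA360, 5.85, 6.31 and 5.67 CPM with SGA315, and 2.89, 3.23 and 2.85 CPM with lovastatin alone. All SGA315 libraries lay above all others, and SGA360 and lovastatin overlapped. The change was 0.99 with SGA315 (SE 0.150, adjusted p = 2.49e-08) and 0.17 with SGA360 (95% interval −0.17 to 0.50, adjusted p = 0.395). H2AC11, the other H2A gene tested, was not called, at 0.43 with SGA315 (adjusted p = 0.268) and −0.29 with SGA360 (adjusted p = 0.525). Of the 50-base stretches of the H2AC6 and H2AC25 transcripts, 0.436% and 0.591% recur in another gene.

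The H2B genes did not move together. Their sum over 11 members was 38.4 ± 1.96 CPM with SGA360, 50.2 ± 2.93 CPM with SGA315 and 48.3 ± 3.85 CPM with lovastatin alone. Without H2BC12 the other 10 summed to 14.04 ± 0.631 CPM with SGA360, 22.4 ± 2.14 CPM with SGA315 and 14.5 ± 2.36 CPM with lovastatin alone, and the SGA315 libraries lay above all others while SGA360 and lovastatin overlapped. H2BC12, the clustered gene with the most reads, had 24.7, 22.7 and 25.6 CPM with SGA360, 27.95, 26.8 and 28.4 CPM with SGA315, and 36.7, 31.1 and 33.5 CPM with lovastatin alone. Every library of either compound lay below every lovastatin library. H2BC12 fell by 0.48 with SGA360 (SE 0.0631, adjusted p = 7.01e-10) and by 0.29 with SGA315 (SE 0.0625, adjusted p = 4.71e-05). Its other entry, at 10.5 to 12.7 CPM with SGA360, 12.96 to 15.6 CPM with SGA315 and 14.6 to 17.6 CPM with lovastatin alone, gave −0.49 with SGA360 (adjusted p = 2.26e-06) and −0.19 with SGA315 (adjusted p = 0.0532). The value is uncertain, because 74.1% of the 50-base stretches of the H2BC12 transcript recur in other genes and because H2BC12 overlaps H4C9 on the other strand. The H2BC12 transcript searched has no annotated 3′ UTR, so that share covers none of the bases there.

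H2BC5 was called in opposite directions with the compounds, although its fall with SGA360 was lost in 6 of 18 alternatives. It had 5.49, 4.58 and 5.35 CPM with SGA360, 10.5, 9.60 and 11.7 CPM with SGA315, and 5.99, 5.40 and 8.04 CPM with lovastatin alone. The SGA315 libraries lay above all others, and the SGA360 libraries overlapped the lovastatin libraries, of which replicate 3 was the highest. With SGA315, H2BC5 rose by 0.69 (SE 0.117, adjusted p = 3.80e-07). With SGA360 it fell by 0.35 (SE 0.135, adjusted p = 0.0199), a call that rests on few libraries: without lovastatin replicate 3 the change was −0.17 (adjusted p = 0.332), and without SGA360 replicate 2 it was −0.28 (adjusted p = 0.104). It was also lost with DESeq2 (adjusted p = 0.0674), under scaling to totals only (−0.24, adjusted p = 0.117) and in the other H2BC5 entry, whose transcript holds the stem-loop shown above (−0.32, adjusted p = 0.105). That entry rose by 0.56 with SGA315 (adjusted p = 0.000910).

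The other tested H2B genes were low. H2BC21, at 4.20 ± 0.312 CPM with SGA360, 5.57 ± 0.329 CPM with SGA315 and 3.45 ± 0.998 CPM with lovastatin alone, rose by 0.67 with SGA315 (adjusted p = 0.000120). With SGA360 its change was 0.28 (adjusted p = 0.129), and it was called without lovastatin replicate 3 (0.54, adjusted p = 0.00935), the library that also stood high for H2BC5, and under scaling to totals only (0.39, adjusted p = 0.0293). H2BC15 rose by 0.83 with SGA315 (SE 0.354, adjusted p = 0.0329), at 1.15 ± 0.227 CPM with SGA315 and 0.634 ± 0.287 CPM with lovastatin alone, and 4 of the 9 fits that leave out 1 library ended that call. They were those without lovastatin replicate 2 (0.59, adjusted p = 0.169), lovastatin replicate 3 (0.103), SGA315 replicate 1 (0.0775) and SGA315 replicate 3 (0.110). With SGA360 the change of H2BC15 was 0.74 (adjusted p = 0.0635), and it was called without lovastatin replicate 1 (1.11, adjusted p = 0.0227) or SGA360 replicate 2 (1.06, adjusted p = 0.00907), under scaling to totals only (0.85, adjusted p = 0.0305) and with the replicate block (0.78, adjusted p = 0.0383). H2BC9 stood at −0.39 with SGA360 (adjusted p = 0.332). It rose by 0.65 with SGA315 (SE 0.300, adjusted p = 0.0492), and 13 of 18 alternatives ended that call. Among them are the fits without lovastatin replicate 1 or 2, without any 1 of the SGA360 libraries, and without SGA315 replicate 1 or 3, with adjusted p of 0.0548 to 0.198. H2BC11 was not called in either comparison, at 0.09 with SGA360 and −0.03 with SGA315.

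**Figure D3:**
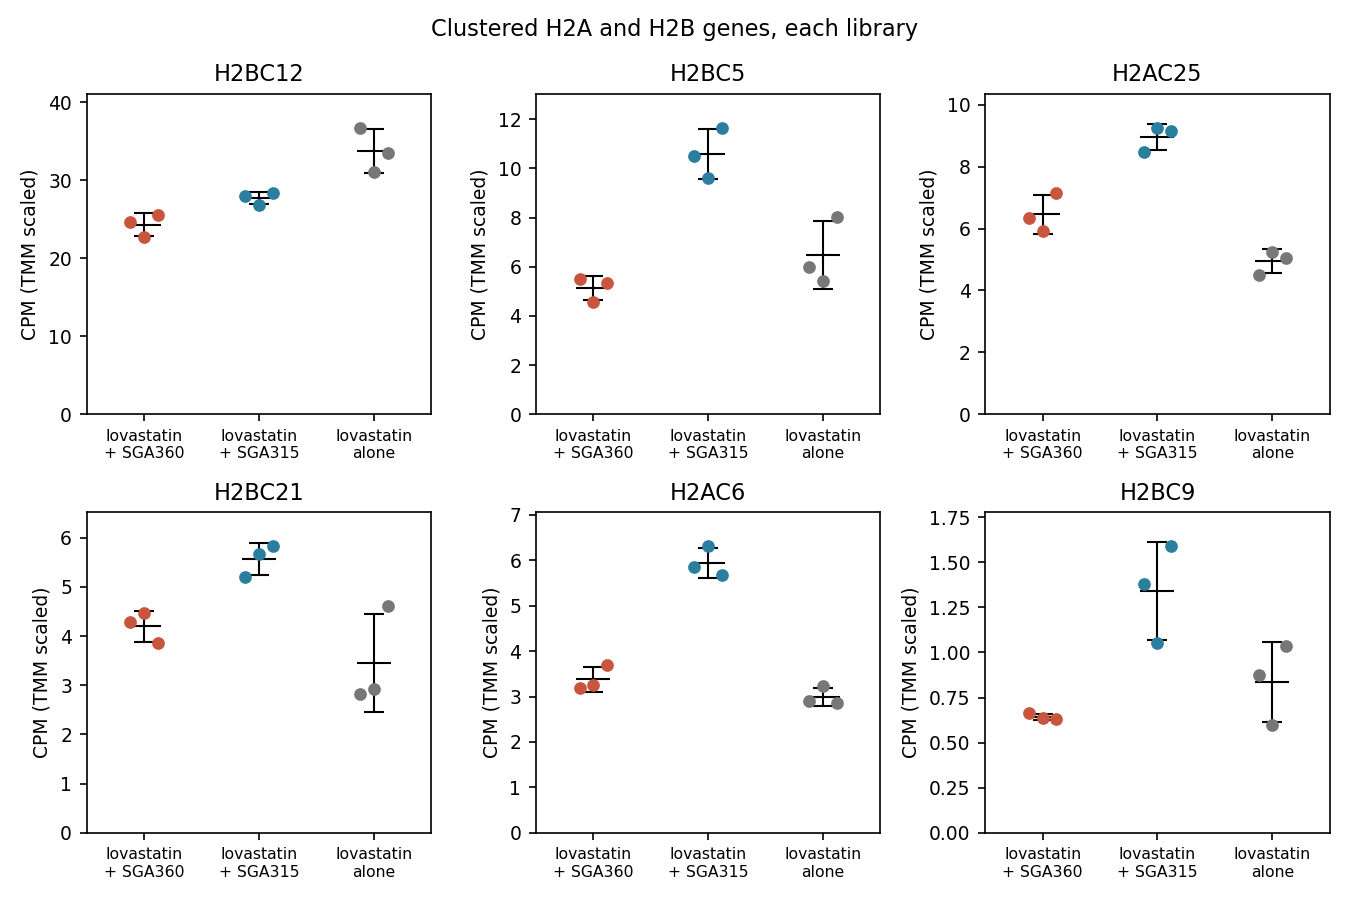
CPM after TMM scaling (vertical axes, from 0, each panel with its own scale) of 6 clustered H2A and H2B genes in each library, by group; points are libraries and bars the mean ± SD of 3. The SGA315 libraries are the highest in each panel except that of H2BC12, where the lovastatin libraries are.

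No H3 gene was called, and no H4 gene had enough reads to be tested. H3C4, H3C6, H3C8 and H3C10 had changes of −0.67 to 0.18 with SGA360 and −0.18 to 0.38 with SGA315, with 95% intervals that reach from −1.43 to 0.97 and from −0.90 to 1.19. SEs were 0.355 to 0.425 with SGA360 and 0.337 to 0.404 with SGA315. Changes within the interval of a gene could thus not be told from none at this depth. Summed over the 4 H3 members the level was 2.44 ± 0.320 CPM with SGA360, 3.15 ± 0.286 CPM with SGA315 and 2.75 ± 0.170 CPM with lovastatin alone. The 5 H4 members together had 43 reads with SGA360, 52 with SGA315 and 36 with lovastatin alone. Their sum was 0.905 ± 0.175 CPM with SGA360, 1.22 ± 0.159 CPM with SGA315 and 0.826 ± 0.0484 CPM with lovastatin alone. For H3C4 and H4C12 all 50-base stretches of the transcript searched recur in other genes, and reads there cannot be assigned with certainty. Both transcripts have no annotated 3′ UTR, so bases there were not searched. H3C4 also overlaps H2AC7 by 510 bp on the same strand.

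The 18 members under the filter were 2 H1, 6 H2A, 5 H2B and 5 H4 genes, and each had at most 31 reads in a group. Together they had 218 reads with SGA360, 268 with SGA315 and 208 with lovastatin alone, and their sum was 4.65 ± 0.380 CPM with SGA360, 6.29 ± 0.339 CPM with SGA315 and 4.78 ± 0.289 CPM with lovastatin alone. The SGA315 libraries, at 5.92 to 6.58 CPM, lay above those of SGA360, at 4.25 to 5.003 CPM, and of lovastatin alone, at 4.54 to 5.10 CPM. H2AC8, for example, had 8 reads with SGA360 (exact Poisson interval 3.45 to 15.8), 20 with SGA315 and 20 with lovastatin alone (12.2 to 30.9 each), intervals that cover counting error only and overlap. H2AC7, H2AC17 and H2AC13 among them share 98.0%, 86.3% and 62.3% of their 50-base stretches with other genes. The transcripts searched for H2AC7 and H2AC17 have no annotated 3′ UTR.

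**Figure D4:**
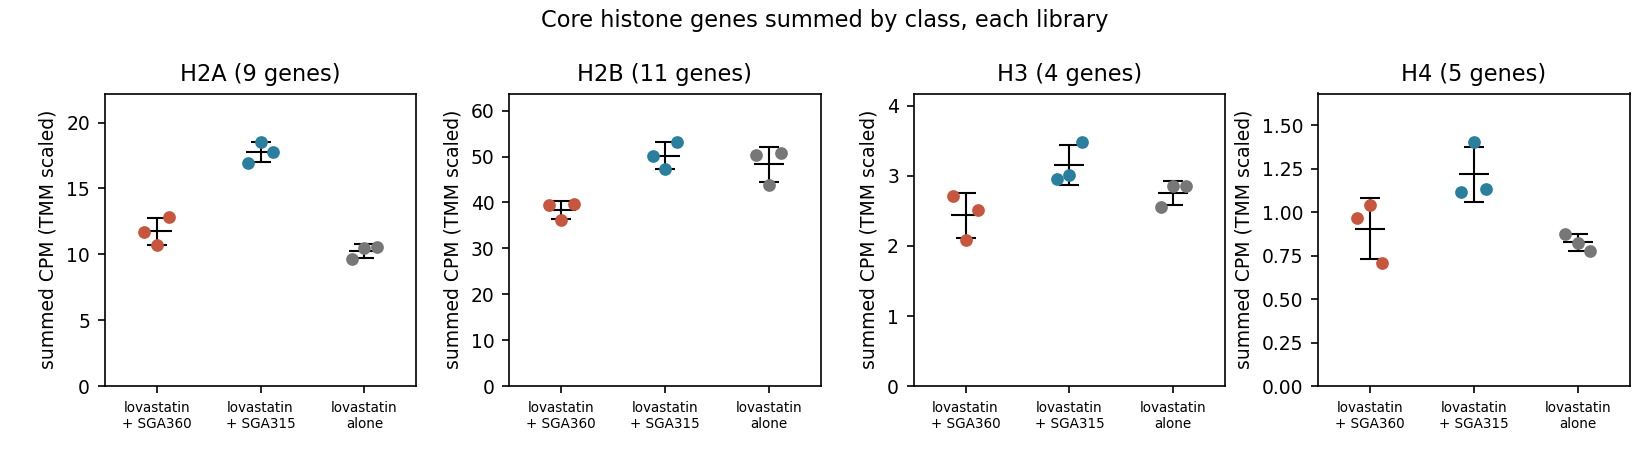
Summed CPM after TMM scaling (vertical axes, from 0, each panel with its own scale) of the 9 H2A, 11 H2B, 4 H3 and 5 H4 members in each library, by group; points are libraries and bars the mean ± SD of 3. The H2A sum averages 17.8 with SGA315 against 10.2 with lovastatin alone, and the H2B sum is lowest with SGA360, at 38.4; without H2BC12 it is 14.04 with SGA360 and 14.5 with lovastatin alone.

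SGA360 and SGA315 were compared directly at the same dose and time, as 1 pair of compounds. Here 1 of the 15 members was higher with SGA360 (H1-10) and 6 were lower (H2BC5, H2AC6, H2AC25, H2BC9, H2BC12 and H2BC21), where 42.7% of all genes were called (21.8% higher and 20.9% lower). The median over the 15 was −0.42, against −0.01 over all genes. Under scaling to totals only, 7 members were called, where 42.6% of all genes were, and with DESeq2 5, where 32.1% of all genes were. Between libraries, 8 members did not overlap (1 above and 7 below), where 49.2% of all genes did not (24.5% above and 24.6% below). H2BC5 differed most, at 5.14 ± 0.489 CPM with SGA360 and 10.6 ± 1.03 CPM with SGA315 (log2 −1.05, SE 0.122, adjusted p = 5.89e-11). H2AC6 differed by −0.83 (SE 0.143, adjusted p = 2.04e-06) and H2AC25 by −0.48 (SE 0.112, adjusted p = 0.000303). In each of these genes every SGA360 library lay below every SGA315 library.

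H1-10 went the other way in that comparison, by less: it was higher with SGA360 by 0.29 (SE 0.0456, adjusted p = 3.19e-07). H2BC9, at 0.643 ± 0.0178 CPM with SGA360 and 1.34 ± 0.271 CPM with SGA315, was lower by 1.04 on the log2 scale (adjusted p = 0.00525). H2BC12 was lower by 0.20 (adjusted p = 0.0127; 0.121 without SGA360 replicate 2 and 0.0794 with DESeq2). H2BC21 was lower by 0.39 (adjusted p = 0.0245), with 0.0771, 0.0618 and 0.0675 without SGA360 replicate 3, SGA315 replicate 2 or SGA315 replicate 3, and 0.124 with DESeq2. For H1-2 the difference was 0.18 with an interval of −0.15 to 0.51, and for H2BC15 −0.09 with an interval of −0.71 to 0.52, which leaves room for differences either way.

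Summed over the 31 members on chromosomes 1 and 6, where the histone clusters lie, the level was 57.5 ± 2.66 CPM with SGA360, 75.9 ± 2.91 CPM with SGA315 and 66.7 ± 2.96 CPM with lovastatin alone. The libraries ranged from 54.4 to 59.1 CPM with SGA360, from 73.9 to 79.2 CPM with SGA315 and from 63.3 to 68.9 CPM with lovastatin alone, and the 3 groups did not overlap. Without H2BC12, whose value is uncertain, the sum was 33.2 ± 1.35 CPM with SGA360, 48.1 ± 2.30 CPM with SGA315 and 32.9 ± 2.13 CPM with lovastatin alone. The SGA360 libraries then overlapped the lovastatin libraries, and the SGA315 libraries lay above both. Tested against a 1.5-fold change in place of none, 0 members were called with SGA360, where 5.72% of all genes were. With SGA315 they were H2AC25 (adjusted p = 0.0337) and H2AC6 (adjusted p = 0.0104), where 10.8% of all genes were called. Between the compounds it was H2BC5 (adjusted p = 0.00344), where 1.25% of all genes were called.

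Genes used in S phase, when clustered histone genes are active, fell with both compounds. As background to this list and those that follow, the share of all genes called with SGA360 was 31.4% upwards and 31.4% downwards (median change 0.02), and with SGA315 36.0% upwards and 33.2% downwards (median change 0.04). All 16 S phase genes tested fell with SGA360, at a median of −0.87, and all 16 with SGA315, at −1.10. PCNA is the sliding clamp of DNA replication, RRM2 a subunit of the enzyme that makes deoxynucleotides, and TYMS makes thymidylate. With SGA360, PCNA fell by 1.09, RRM2 by 1.76 and TYMS by 0.97. With SGA315, PCNA fell by 1.44, RRM2 by 1.95 and TYMS by 1.28. Between the compounds, 14 of the 16 were higher with SGA360 and 0 lower, where 21.8% of all genes were higher and 20.9% lower. The list was put together with earlier results of these data known, and its direction is not independent evidence.

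Histone variants listed as replication-independent, which are used outside S phase as well, mostly fell. Of 9 tested, 2 rose and 6 fell with SGA360 (median −0.34), and 2 rose and 6 fell with SGA315 (median −0.48). H2AX, the variant phosphorylated at DNA breaks, whose gene is known to give both stem-loop and polyadenylated mRNA, had 86.7 ± 3.88 CPM with SGA360, 68.4 ± 3.09 CPM with SGA315 and 162 ± 3.50 CPM with lovastatin alone, and fell by 0.90 with SGA360 and 1.24 with SGA315. H2AZ1 and its close relative H2AZ2 are variants of promoter nucleosomes, and CENPA is the H3 variant of centromeres. With SGA360, H2AZ1 fell by 0.88, H2AZ2 by 0.55 and CENPA by 0.34. With SGA315, H2AZ1 fell by 1.04, H2AZ2 by 0.62 and CENPA by 0.53. The H3.3 gene H3-3A fell by 0.38 with SGA360 and 0.48 with SGA315, while H3-3B, which codes for the same protein, rose by 0.07 with SGA360 (adjusted p = 0.0209) and stood at −0.03 with SGA315 (adjusted p = 0.268). H2AJ, a variant known from senescent cells and named here after its values were seen, rose by 0.58 with SGA360 and 0.47 with SGA315, and MACROH2A2, likewise, rose by 1.02 with SGA315 (SE 0.408, adjusted p = 0.0236). MACROH2A2 rests on few reads, 36 in all with SGA315 and 18 with lovastatin alone. Under RLE scaling 1 variant rose with SGA360, where 30.4% of all genes rose. Under scaling to totals only 3 rose with each compound, where 44.1% of all genes rose with SGA360 and 47.2% with SGA315.

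The machinery that makes histone mRNA and carries histone protein was mostly lower. Of 20 genes tested for histone gene transcription and 3′ end processing, 1 rose and 14 fell with SGA360 (median −0.19), and 3 rose and 14 fell with SGA315 (median −0.28). SLBP, which binds the stem-loop, had 73.1 ± 2.35 CPM with SGA360, 54.5 ± 2.30 CPM with SGA315 and 91.7 ± 2.55 CPM with lovastatin alone, and fell by 0.33 with SGA360 and 0.75 with SGA315. NPAT, the coactivator of clustered histone genes, fell by 0.20 with SGA360 (adjusted p = 0.000617) and by 0.11 with SGA315 (adjusted p = 0.0492). CASP8AP2, which works in the same nuclear bodies, fell by 0.17 with SGA360 and 0.30 with SGA315. SNRPB and SNRPD3 are Sm proteins of the spliceosome and of the U7 particle, which directs the cut that ends histone mRNA. SNRPB fell by 0.74 with SGA360 and 0.91 with SGA315, and SNRPD3 by 0.70 with SGA360 and 0.64 with SGA315. The genes that rose were PAPOLG, a poly(A) polymerase, with SGA360 (0.24) and SGA315 (0.28), and HINFP, the H4 gene activator (0.14), and LSM11, of the U7 particle (0.25), with SGA315; they are named after their values were seen. The numbers that rose and fell depend on the scaling. With totals only, 2 rose and 9 fell with SGA360, and 6 rose and 11 fell with SGA315. Of all genes, 44.1% rose and 21.4% fell with SGA360 under that scaling, and 47.2% rose and 24.7% fell with SGA315. Under RLE scaling 2 rose with SGA315, where 34.2% of all genes rose.

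Of 21 histone chaperones and import factors tested, 1 rose and 15 fell with SGA360 (median −0.26), and 4 rose and 17 fell with SGA315 (median −0.32). ASF1B is the H3-H4 chaperone of dividing cells, CHAF1A belongs to the assembly factor that works behind the replication fork, and NASP stores H3-H4 and is known to bind linker histones. With SGA360, ASF1B fell by 0.83, CHAF1A by 0.53 and NASP by 0.60. With SGA315, ASF1B fell by 1.07, CHAF1A by 0.68 and NASP by 0.65. The genes that rose are named after their values were seen. ASF1A, the relative of ASF1B, rose by 0.28 with SGA360 and 0.41 with SGA315. ATRX (0.28) and UBN1 (0.12), of the H3.3 deposition pathways, and NAP1L1 (0.17), a chaperone of H2A and H2B, rose with SGA315. With totals only, 5 rose and 13 fell with SGA360, where 44.1% of all genes rose and 21.4% fell. MCM2 is in this list and in that of S phase genes. Among genes for HMG and CBX chromatin proteins, HMG members are known to compete with linker histones. Of 12 tested, 1 rose (HMGN4, 0.19) and 11 fell with SGA360, and 0 rose and 11 fell with SGA315. With totals only, 1 rose and 8 fell with SGA360, where 44.1% of all genes rose and 21.4% fell. With SGA315 1 rose and 11 fell under that scaling, where 47.2% of all genes rose and 24.7% fell. HMGB1, a DNA-bending protein, fell by 0.72 with SGA360 and 0.87 with SGA315, and HMGN2, which binds nucleosomes, by 0.43 with SGA360 and 0.65 with SGA315.

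**Figure D5:**
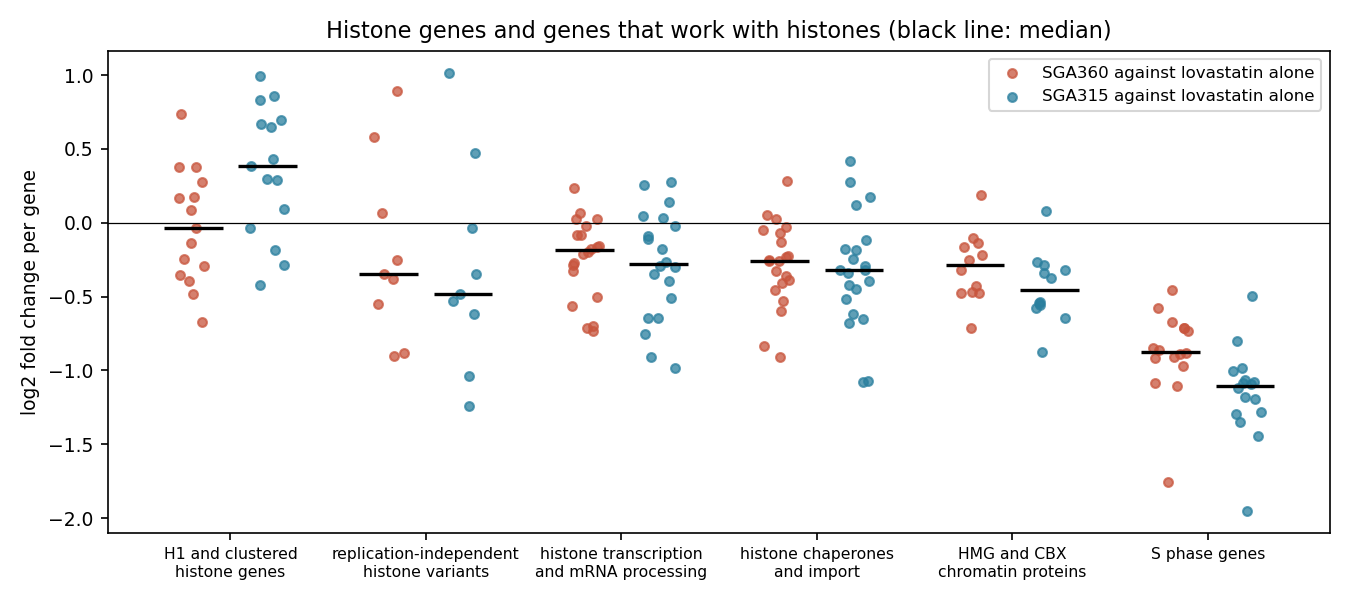
Log2 fold change against lovastatin alone (vertical axis) of each tested gene in 6 lists, for SGA360 (red) and SGA315 (blue); black lines are medians. The median of the histone members is −0.04 with SGA360 and 0.38 with SGA315, and that of the S phase genes −0.87 with SGA360 and −1.10 with SGA315.

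RNA that lacks poly(A) tails was measured beside these results. The nuclear rRNA precursor row took 0.430% to 0.659% of reads with SGA360, 0.235% to 0.316% with SGA315 and 0.520% to 0.724% with lovastatin alone. Of a list of 30 non-polyadenylated RNAs, 21 were among the genes of the table used and 19 had reads. They took 0.000865% to 0.000948% with SGA360, 0.000997% to 0.00119% with SGA315 and 0.00109% to 0.00113% with lovastatin alone. The rest of the list, RN7SK and RN7SL1 among them, could not be counted, so these shares do not measure all such RNA. The part of such carry-over in the clustered genes was not tested. A fit without these rows leaves the histone counts as they were, so it cannot measure that part. In it 4 members were called with SGA360, 7 with SGA315 and 7 between the compounds. Of all genes, 62.4%, 69.1% and 42.7% were called in that fit, in the same order. Of 12 epithelial markers CDX1 had 0 reads, and their summed level was 5605 to 6021 CPM with SGA360, 4352 to 4432 with SGA315 and 7799 to 7880 with lovastatin alone. GPA33 had 3 reads with SGA360, 1 with SGA315 and 0 with lovastatin alone. In the same order KRT20 had 6, 5 and 7 reads and LGALS4 16, 30 and 16. KRT8 averaged 2630 CPM with SGA360, 1492 with SGA315 and 3478 with lovastatin alone, and KRT18 1192, 716 and 1630 CPM. Of 8 tested, 0 rose and 7 fell with SGA360, against 31.4% and 31.4% of all genes. With SGA315, 1 rose (CDX2, 0.63) and 7 fell, HNF4A least (−0.06, adjusted p = 0.0490), against 36.0% and 33.2% of all genes. Under scaling to totals only, 1 rose and 7 fell with SGA360, against 44.1% and 21.4% of all genes. With SGA315 2 rose and 6 fell under that scaling, against 47.2% and 24.7%. All 6 fibroblast markers had reads, summing to 177 to 187 CPM with SGA360, 194 to 195 with SGA315 and 365 to 373 with lovastatin alone, mostly of PDGFRA, while the collagen gene COL1A2 averaged 0 CPM with SGA360, 0 with SGA315 and 0.0216 with lovastatin alone. All 5 immune markers had reads, and the sum was 17.4 to 19.4 CPM with SGA360, 15.2 to 18.1 with SGA315 and 23.0 to 23.6 with lovastatin alone. CD3E had 0 reads with SGA360, 4 with SGA315 and 3 with lovastatin alone, and PTPRC 10, 21 and 6. Of 4 endothelial markers KDR had 0 reads, and the sum was 1.68 to 2.52 CPM with SGA360, 2.50 to 3.08 with SGA315 and 1.75 to 3.08 with lovastatin alone. The part of these levels in the results was not tested.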

How the data were processed

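The members, gene lists and tests were chosen with earlier results of these data known. 1 gene of the symbol rule and 1 listed marker are not reported here, and both stayed in the table that was fitted. The deposited table holds raw read counts per RefSeq transcript, not normalised, per the file headers. Per the submitters' processing notes, TopHat2 2.0.13, HTSeq 0.5.4p3 and hg19 were used. Not given in the sources used here are the strand setting, the treatment of reads with several matches and the annotation release. The libraries hold poly(A)-enriched RNA, per the labels' protocols.

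Of 65325 table rows, 64346 were named from RefSeq (GRCh38.p14) and 534 from GENCODE 29, and 445 unnamed rows (0.233% of counts) were left out. Each gene was represented by its row of highest total. Where genes had the same counts throughout (41 sets), all but 1 were dropped (64 genes, none of them a member). 0 columns were unused.

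All 9 libraries entered 1 edgeR 4.0.16 quasi-likelihood fit (R 4.3.3, limma 3.58.1) with TMM scaling and no covariate, after filterByExpr at a minimum count of 10 and total of 15. Every adjusted p is from that fit and Benjamini-Hochberg adjusted over 14665 genes, unless DESeq2 1.42.0 or another setting is named. SDs are over 3 libraries, and intervals of a change are 95% intervals of the fit. The precision of low genes is set by their counts. The rule for named genes allowed every member, gave values per library for H1 genes, members of at least 5 CPM and the 4 smallest p per comparison, and named up to 4 genes per list by p and 11 fixed genes. On simulated counts (14264 to 14281 genes, 200 changed among those over 5 CPM) the test recovered 100% of 2-fold changes, and of 1.25-fold changes 83%, 83% and 88% for SGA360, SGA315 and their difference. Of its calls there, 7.58%, 4.69% and 8.74% were false, in the same order. Most tested members average under 5 CPM, and these recovery values do not describe them. Replicates of a group differed by more than sampling noise (chi-square per degree of freedom 1.43 to 2.65). Other settings tried were RLE scaling, totals only, DESeq2, no filter, the compared groups only, a replicate block, the lowest accession per gene, no nuclear rRNA or non-polyadenylated list, a test against a 1.5-fold change, and leaving out each library.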

Additional observations from a re-analysis of the deposited data

How the results depend on the processing

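No change of a tested member that was called turned its direction under any of the alternatives. The numbers of members called were 4 for SGA360 against lovastatin alone, 8 for SGA315 against lovastatin alone and 7 for SGA360 against SGA315. They stayed within 1.5 times under each alternative except the fit without lovastatin replicate 2 and DESeq2, both for SGA315 against lovastatin alone, and the test against a 1.5-fold change. That test (edgeR's glmTreat) called 0, 2 and 1, and 0, 2 and 3 at an unadjusted p under 0.05. Leaving out each library gave 4 to 5, 5 to 8 and 6 to 7. Of all genes, 57.7% to 63.0%, 64.6% to 68.6% and 36.0% to 41.8% were called in those fits. DESeq2 called 3, 5 and 5. Over all tested members and alternatives, 742 results kept their side of the threshold, 52 lost a call and 11 gained one. Same-numbered replicates did not deviate together over the genes tested (correlations −0.02 to 0.05). No pairing of libraries by number was thus seen, which does not exclude one. A fit with the replicate block called 5, 8 and 7 members, where 63.6%, 70.0% and 43.9% of all genes were called. Scaling to totals only moved the median of all genes to 0.14 with SGA360 and 0.16 with SGA315, and then 4 members rose and 1 fell with SGA360, and 7 rose and 1 fell with SGA315. Of all genes, 44.1% rose and 21.4% fell with SGA360 there, and 47.2% rose and 24.7% fell with SGA315. Members under about 1 CPM rest on few reads, and no H4 gene could be tested. H3C10 and H3C6 gave no value in 1 alternative each for the comparisons with lovastatin alone, nor H3C8 between the compounds, where the filter removed them. The lovastatin group is shared by both comparisons, and no group without lovastatin was analysed here.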

Other observations

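Small Cajal body RNAs, which guide the modification of spliceosomal RNA and lack poly(A) tails, were measured beside the clustered histone genes. Of 5 non-polyadenylated RNAs tested, SCARNA17 rose by 1.09 with SGA360 and 1.23 with SGA315, SCARNA12 fell by 1.01 with SGA360 and 1.00 with SGA315, and the other 3 were not called in either comparison. Between the compounds SCARNA9 was lower with SGA360 by 0.74 (adjusted p = 0.000740).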
